A study of Mus musculus with 8 samples.

Results

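Type 1 conventional dendritic cells (cDC1) of tumour-bearing mouse liver were taken from 6 droplet single-cell libraries as cell barcodes that carried at least 1 unique molecular identifier (UMI, 1 counted mRNA molecule) of Xcr1 or Clec9a. They also carried a UMI of at least 2 of Flt3, Wdfy4, Irf8, Batf3 and Cst3, and none of Cd209a, Fscn1, Siglech, C1qa, Cd3e or Cd79a. The rule took 338 of 21482 kept barcodes (1.573%), where a kept barcode had at least 500 UMIs, at least 300 genes and at most 20% mitochondrial UMIs. The genes named in the rule chose the members, so their levels are given as a description only.

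The tumours were started in male C57BL/6 mice of 8 to 10 weeks by hydrodynamic tail vein injection, which carries plasmids into hepatocytes, of CRISPR-Cas9 vectors with a guide against Trp53, a c-Myc transposon and the SB13 transposase, and livers were taken 4 to 5 weeks later. Control mice were Ncr1WT, Nr4a1fl/fl and carried no Cre. Knockout mice were Ncr1iCre, Nr4a1fl/fl, so that Cre acts in cells that express Ncr1, a receptor gene of natural killer (NK) cells and related innate lymphoid cells. All mice thus shared the floxed Nr4a1 alleles and the tumour plasmids, and the dendritic cells of neither group are a named target of the Cre. Each group had 3 mRNA libraries. Control 3 pooled 3 mice and knockout 3 pooled 2 mice with hashtag antibodies, while the labels do not state how many animals stand behind the libraries numbered 1 and 2. Where a library is 1 animal or 1 pool, the p-values below measure the spread between such libraries.

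cDC1 are dendritic cells specialised in taking up dead cells and presenting their antigens on MHC class I to CD8 T cells. Their development depends on the transcription factors IRF8, BATF3 and ID2. XCR1 is the receptor for XCL1, a chemokine that NK cells and CD8 T cells secrete, and CLEC9A binds actin filaments exposed by dead cells, which links both genes of the rule to the dialogue of these cells with lymphocytes and dying tumour cells.

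The 2 genes that open the rule are shown with the 250 bases before their transcription start, together with those of 2 identity genes whose window held a motif of the factors above, all from RefSeq on GRCm38.p6. The data were counted on another build, GRCm39, so these coordinates belong to the sequences only. Capitals mark a match in Zbtb46, the gene of a zinc finger factor of conventional dendritic cells, to a joint IRF and AP-1 element, GAAA directly followed by TGANTCA (found on the opposite strand), and in Ifi205, an interferon-inducible gene of the HIN-200 family, to an IRF element, GAAA repeated after 2 bases of any kind. The windows of Xcr1 (chr9:123862030-123862279, minus strand), Clec9a (chr6:129408612-129408861, plus strand), Zbtb46 (chr2:181424389-181424638, minus strand) and Ifi205 (chr1:174031756-174032005, minus strand) read 5′ to 3′ as follows.
Xcr1: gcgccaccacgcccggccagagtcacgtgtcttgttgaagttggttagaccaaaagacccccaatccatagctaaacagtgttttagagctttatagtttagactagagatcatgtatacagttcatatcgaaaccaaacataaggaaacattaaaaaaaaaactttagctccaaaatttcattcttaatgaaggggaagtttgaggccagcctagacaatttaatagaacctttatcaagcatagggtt
Clec9a: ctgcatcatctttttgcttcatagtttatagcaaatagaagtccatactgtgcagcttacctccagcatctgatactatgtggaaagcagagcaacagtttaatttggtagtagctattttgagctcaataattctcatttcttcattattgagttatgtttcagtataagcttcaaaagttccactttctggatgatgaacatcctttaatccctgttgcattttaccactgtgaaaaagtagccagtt
Zbtb46: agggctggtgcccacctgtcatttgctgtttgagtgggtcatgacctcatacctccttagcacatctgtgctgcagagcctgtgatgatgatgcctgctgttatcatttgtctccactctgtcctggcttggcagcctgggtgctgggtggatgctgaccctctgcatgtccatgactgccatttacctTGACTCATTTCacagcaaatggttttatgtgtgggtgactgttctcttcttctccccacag
Ifi205: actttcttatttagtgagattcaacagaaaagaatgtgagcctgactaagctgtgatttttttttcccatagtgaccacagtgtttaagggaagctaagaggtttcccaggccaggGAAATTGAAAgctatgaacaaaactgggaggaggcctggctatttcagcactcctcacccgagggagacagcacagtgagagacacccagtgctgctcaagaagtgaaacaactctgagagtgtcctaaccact
Both strands were searched in 32 windows of 27 identity genes with an entry. The joint element was found in Zbtb46 alone and in 0.1% of all 32851 promoters of the same length. Its other spacing, TTTC set 4 bases before TGANTCA, was found in none of the identity windows and in 0.097% of all promoters. TGANTCA, which the first joint element contains, was found in Itgax and Zbtb46 and in 6.749% of all promoters, and the repeated GAAA in Ifi205 and Tlr11 and in 2.977%. The PU.1 element GAGGAAGT was found in Btla, Rasgrp3 and Tlr11 and in 2.441% of all promoters. A match is a string of letters and no measure of binding.

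Controls 1, 2 and 3 gave 69, 2 and 131 members, and the same-numbered knockouts gave 64, 1 and 71. Kept barcodes numbered 2697, 549 and 10128 in the controls and 2777, 134 and 5197 in the knockouts, and any pair of libraries shared at most 15 kept barcodes. The libraries numbered 2 stood apart: their median mitochondrial share before filtering was 18.87% in control 2 and 31.16% in knockout 2, against 2.98% to 6.38% in the other libraries. Their 3 members were too few for gene tests, which used the 335 members of the other 4 libraries. The members of a library held a median of 9795 UMIs in control 1, 13007 in control 3, 16816 in knockout 1 and 11825 in knockout 3, several times the median of all kept barcodes (2632 to 3914 UMIs in the same libraries). In barcodes with an Ncr1 UMI and no Cd3e UMI, Nr4a1 stood at 72.0, 33.1 and 43.6 CPM (its share of the summed UMIs times 1000000) in the controls and at 142.0, 0.0 and 53 CPM in the libraries labelled knockout (58, 27 and 109 such barcodes), where the absence of a UMI in knockout 2 allows up to 22.0 CPM. It was thus not lower throughout the libraries labelled knockout. The labels do not name the deleted exons, and 3′ counts from outside them would check nothing. The word knockout below stands for that label.

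The rule left 622 barcodes before its exclusions and 338 after them. Of the 284 removed, 110 carried Siglech, a plasmacytoid dendritic cell gene, 85 carried Cd209a of type 2 conventional dendritic cells (cDC2), 62 carried Cd3e of T cells, 53 C1qa of macrophages, 48 Cd79a of B cells and 44 Fscn1 of mature dendritic cells. The 30 members with exactly 2 of the 5 supporting genes held a median of 5647 UMIs, and the 63 barcodes just outside, with 1 supporting gene, held 3667. At least 3 of 7 further cDC1 genes (Tlr3, Cadm1, Itgae, Naaa, Ifi205, Snx22 and Gcsam) were found in none of the latter, in 6 of the 30 just inside and in 201 of 205 members with all 5 supporting genes. Among the 62 barcodes removed for Cd3e, 17 had at least 3 of the 7 genes, and among the 44 removed for Fscn1, 11 did, so the exclusions also removed barcodes with several cDC1 genes.

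The label of the members held for most of them by those 7 genes, which the rule did not use. At least 3 of the 7 were detected in 268 of 338 members (79.29%): 56 of 69 in control 1, 102 of 131 in control 3, 50 of 64 in knockout 1 and 60 of 71 in knockout 3, but in 0 of the 3 members of the libraries numbered 2. The members were thus mixed, with the remainder showing fewer of these genes.

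Both Xcr1 and Clec9a were detected in 205 members, Clec9a alone in 119 and Xcr1 alone in 14. At least 3 of the 7 genes were found in 202 of the 205 (98.54%), in 56 of the 119 with Clec9a alone (47.06%) and in 10 of the 14 with Xcr1 alone (71.43%). Members with both genes were deeper, with medians of 11237, 15717, 20461 and 13845 UMIs in control 1, control 3, knockout 1 and knockout 3, against 7849.5, 7369, 8846 and 6113.5 with Clec9a alone. The deeper barcodes therefore had more chances to show each gene.

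To set these subsets side by side at one depth, each member of at most 50000 UMIs was thinned to 3000 UMIs, which left out the shallower ones, 7, 11, 5 and 8 members of control 1, control 3, knockout 1 and knockout 3. Naaa, an enzyme that hydrolyses N-acylethanolamines, stood at 958.3, 808.2, 1032.5 and 1022.2 CPM in members with both genes and at 388.9, 350.4, 312.5 and 311.1 CPM in those with Clec9a alone, in the same order of libraries. Itgae, which encodes the integrin CD103, stood at 91.7, 132.4, 211.4 and 170.4 CPM against 18.5, 25.6, 104.2 and 44.4 CPM. The thinned sets held 40, 73, 41 and 45 members with both genes and 18, 39, 16 and 15 with Clec9a alone. Low values in the latter thus rest on very few UMIs, as for Itgae and for Gcsam (18.5, 42.7, 0.0 and 44.4 CPM). Ifi205 differed little in control 1, at 566.7 against 555.6 CPM. Of the 7 further cDC1 genes, 5 were lower with Clec9a alone in each of the 4 libraries, while Cadm1 was lower in 3 of them and Snx22 in 2. S100a4, a calcium-binding protein gene of many myeloid cells chosen here after its values were seen, went the other way, with 8.3, 68.5, 40.7 and 7.4 CPM in members with both genes and 425.9, 658.1, 291.7 and 133.3 CPM with Clec9a alone. Tcf4, a factor that plasmacytoid dendritic cells depend on and also chosen after its values were seen, stood at 58.3, 32.0, 48.8 and 44.4 CPM with both. With Clec9a alone it stood at 148.1, 205.1, 208.3 and 111.1 CPM. In the gated classes, unthinned, Tcf4 ranged from 146.4 to 211.7 CPM in cDC2, 76.8 to 152.1 in macrophages and 524.1 to 3455.5 in plasmacytoid dendritic cells. Irf8 was lower with Clec9a alone, at 1722.2, 777.8, 666.7 and 488.9 CPM against 1741.7, 1429.2, 1471.5 and 1259.3 CPM with both. Unthinned, Xcr1 was detected in 65.22%, 61.07%, 67.19% and 71.83% of members of these libraries.

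Clec9a was also detected outside the members. For monocytes gated by Ly6c2, all exclusions of the gate but Cd3e and Cd79a were lifted. In control 1, control 3, knockout 1 and knockout 3 this wider set held 167, 378, 275 and 196 barcodes, against 128, 270, 227 and 142 in the gate. A Clec9a UMI was found in 13.174%, 10.317%, 9.091% and 10.204% of the wider set. It may hold members and other myeloid cells, which were not counted. In endothelial cells gated by Stab2 or Kdr, a Clec9a UMI was found in 5.195%, 11.621%, 12.903% and 7.911%, at median depths of 2137, 3611, 2823 and 2168 UMIs. T cells gated by Cd3e, which should lack it, gave 0.515%, 1.142%, 0.175% and 0.84% at higher median depths of 3948.5, 4947, 6070 and 4577 UMIs. Xcr1 in the same endothelial cells was found in 0.612% and 1.266% of control 3 and knockout 3, and was not detected in control 1 and knockout 1, whose exact 95% intervals reach 2.367% and 11.219%. In barcodes of at most 100 UMIs, which hold mostly free RNA, Clec9a stood at 9.78 CPM in control 3 and 5.1 CPM in knockout 3, and Xcr1 at 3.71 and 1.77 CPM.

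Levels of the identity genes were compared with cDC2, mature dendritic cells, plasmacytoid dendritic cells, macrophages and monocytes gated by their own markers in the same 4 libraries. The gate for mature cells allows Xcr1 and Clec9a UMIs, while the other 4 gates exclude them. Xcr1 stood at 241.0 CPM in control 1, 203.1 in control 3, 351.9 in knockout 1 and 287.9 in knockout 3, and Clec9a at 237.4, 270.4, 339.7 and 314.7 CPM. Wdfy4, a gene needed for cross-presentation by cDC1, stood at 883.3, 823.0, 1209.1 and 815.8 CPM, and Batf3 at 161.5, 164.8, 230.5 and 231.9 CPM. Of these rule genes, Xcr1, Clec9a and Wdfy4 lay above each library of the other classes, whereas Batf3 reached 193.5 CPM in mature dendritic cells and Irf8 1770.1 CPM in plasmacytoid dendritic cells.

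Of 26 identity genes outside the rule, 15 lay above every library of the other 5 classes. Tlr3 ranged from 134.7 to 184.1 CPM over the 4 libraries of cDC1 and reached 25.0 CPM at most elsewhere, in mature dendritic cells. Itgae, the integrin chain CD103 that binds E-cadherin, ranged from 57.8 to 137.4 CPM and reached 18.1 CPM elsewhere. Naaa ranged from 611.7 to 881.6 CPM against at most 211.6 CPM, and Ifi205 from 414.8 to 600.3 CPM against at most 205.6 CPM, both in mature dendritic cells. Ppt1, a lysosomal thioesterase, ranged from 648.3 to 1069.8 CPM against at most 208.1 CPM in macrophages. For the cell adhesion gene Cadm1 the classes overlapped, at 296.4 to 724.5 CPM in cDC1 and up to 320.1 CPM in macrophages.

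Other identity genes were shared. Zbtb46 ranged from 92.8 to 144.9 CPM in cDC1, from 72.1 to 135.1 in cDC2 and from 87.4 to 152.9 in mature dendritic cells, so the 3 ranges overlapped. Id2, a repressor needed for cDC1, ranged from 814.8 to 852.5 CPM and was exceeded in macrophages at 1111.5 CPM. Ly75, the endocytic receptor DEC-205, reached 257.6 CPM in mature dendritic cells against 31.1 to 53.6 CPM in cDC1, and the lowest library of the mature cells lay inside the cDC1 range. Cd8a, which marks lymphoid organ cDC1, stood at 15.3 to 50.1 CPM. It overlapped with mature dendritic cells (0.0 to 90.7 CPM) and plasmacytoid dendritic cells (0.0 to 77.3 CPM).

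**Figure D1:**
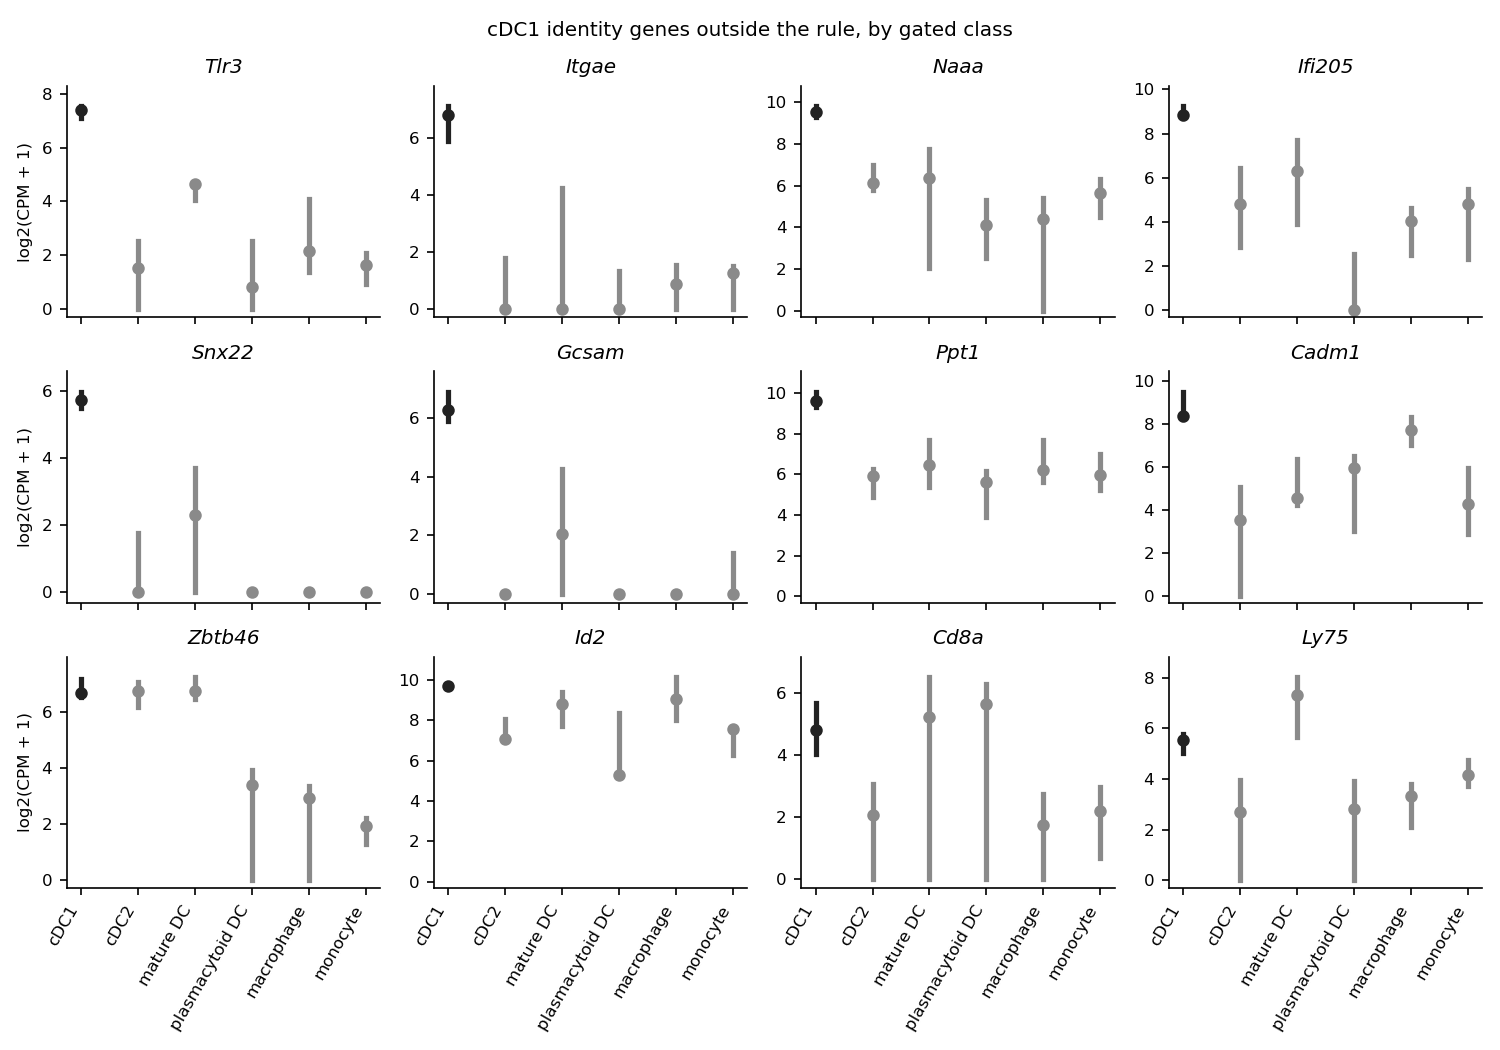
Levels of 12 cDC1 identity genes outside the rule in 6 gated classes, as log2(CPM + 1) of summed UMIs; points are medians over control 1, control 3, knockout 1 and knockout 3 and bars run from the lowest to the highest library. Tlr3, Itgae, Naaa, Ifi205, Snx22, Gcsam and Ppt1 do not overlap with any other class, whereas Cadm1, Zbtb46, Id2, Cd8a and Ly75 do.

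The genes whose level most resembled that of Xcr1, by Spearman correlation of CPM over 24 points (6 classes in 4 libraries), were Clec9a (0.955), Gcsam (0.888), Gm36208 (0.802), Txndc15 (0.801) and Gm30978 (0.798). The points share libraries and 4 of the gates set Xcr1 to 0, so these values describe the classes and carry no test. Gcsam, a germinal centre signalling gene, ranged from 59.0 to 118.9 CPM in cDC1 and reached 18.1 CPM in mature dendritic cells and 1.6 CPM in the other 4 classes. Txndc15 ranged from 94.0 to 151.5 CPM in cDC1 and reached 66.5 CPM in mature dendritic cells. Gm36208 and Gm30978 stayed at or below 2.3 CPM in cDC1.

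Of the genes of antigen presentation, Cd74, the invariant chain of MHC class II, stood at 9865.3 CPM in control 1, 12090.7 in control 3, 14563.6 in knockout 1 and 15607.0 in knockout 3. It was detected in 95.65%, 90.84%, 98.44% and 95.77% of members. Tap1, a subunit of the peptide transporter of MHC class I, stood at 139.8, 128.1, 188.2 and 177.2 CPM and was detected in 69.57%, 70.99%, 84.38% and 78.87% of members.

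Of the signals from cDC1 to lymphocytes, Cxcl9, a ligand of CXCR3, stood at 571.2, 234.2, 439.4 and 240.1 CPM in the same order and was found in 20.29% to 35.94% of members. Its 2 groups overlapped. Il12b, a subunit of interleukin 12, was found in 1.45%, 2.29%, 1.56% and 2.82% of members. Il15, a growth factor of NK cells, stood at 16.9, 25.5, 20.7 and 25.6 CPM. Ccr7, which guides mature dendritic cells to lymph nodes, was found in 3.05% to 4.35% of members, after Fscn1-bearing barcodes had been removed by the rule. Cxcl10 stood at 37.4, 75.0, 13.2 and 335.7 CPM, and a UMI of it was found in 5.8% to 10.69% of members. Ccl5, a chemokine for T and NK cells, stood at 1.2, 126.0, 14.1 and 9.3 CPM and was found in 39.69% of the members of control 3 against 1.45% to 7.04% elsewhere. In control 3 the NK cell marker list summed to 274.0 CPM, against 6.0, 10.4 and 17.5 CPM in control 1, knockout 1 and knockout 3, and its part in the level of Ccl5 was not tested.

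Markers of other cell types were not absent from the members, and some were spread over many of them. Summed over 8 genes, monocyte markers ranged from 437.5 to 538.5 CPM in the 4 libraries. At least 3 UMIs of them were found in 37 of 69 members of control 1, 87 of 131 of control 3, 43 of 64 of knockout 1 and 42 of 71 of knockout 3. The 7 B cell genes ranged from 98.8 to 130.1 CPM, with 3 or more UMIs in 9, 40, 15 and 14 members. The list of 7 plasmacytoid dendritic cell genes ranged from 137.5 to 151.8 CPM, with Siglech, which the rule excludes, and Klk1 at 0. The 6 endothelial genes stood at 54.2 CPM in control 1, 332.7 in control 3, 22.6 in knockout 1 and 224.9 in knockout 3, so the libraries numbered 3 were higher in both groups.

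The 8 hepatocyte genes differed most between the groups, at 1566.5 CPM in control 1 and 6793.3 in control 3, against 55.5 CPM in knockout 1 and 347.3 in knockout 3. At least 3 UMIs of these genes were found in 14 of 69 members of control 1, 99 of 131 of control 3, 5 of 64 of knockout 1 and 26 of 71 of knockout 3. The difference in summed CPM between the groups rested mostly on a few barcodes. Members over 50000 UMIs numbered 6, with 2 in control 1, 1 in control 2, 3 in control 3 and 0 in the knockouts, and the deepest of the remaining members held 38470 UMIs. Of these 6, those in controls 1 and 3 held 21.12% and 20.17% of all member UMIs there. The 2 in control 1 carried 945 and 265 hepatocyte list UMIs and those in control 3 carried 1878, 15 and 10738. H19, an oncofetal RNA, gave 425 and 117 UMIs in the barcodes of control 1, and 509, 1 and 2 in those of control 3. The barcode with 10738 hepatocyte list UMIs was called a hashtag multiplet. Without the members over 50000 UMIs the hepatocyte list stood at 137.5 CPM in control 1 and 437.1 CPM in control 3. No doublet caller was run on the members, and gene comparisons are given below with and without these barcodes, a division chosen after they were seen.

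**Figure D2:**
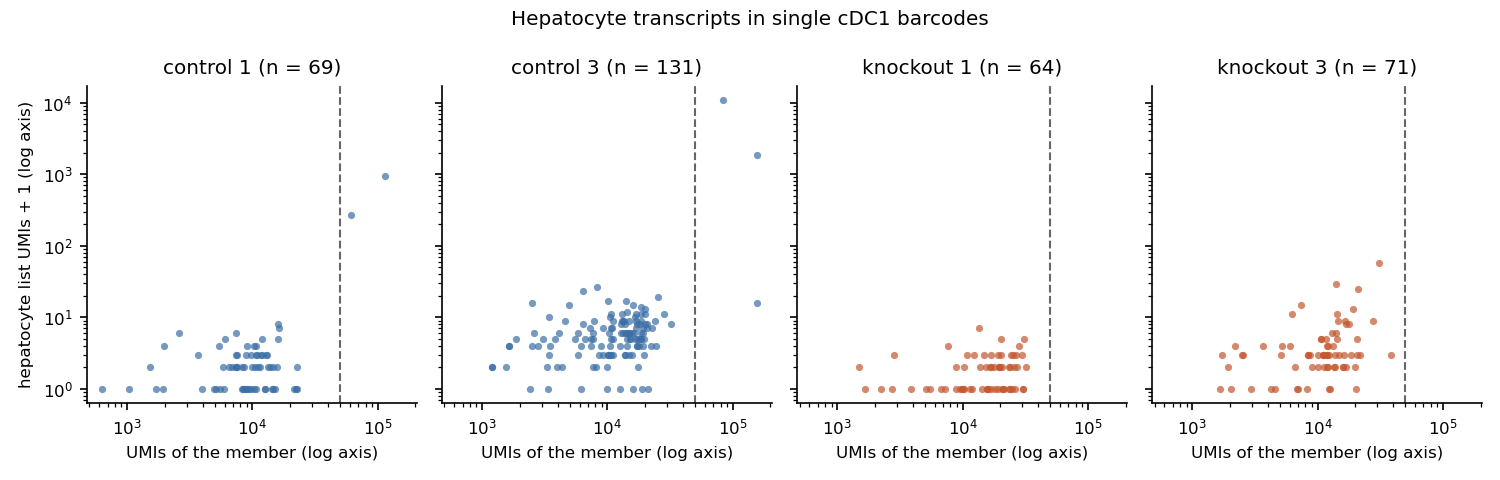
Hepatocyte list UMIs plus 1 against total UMIs of each member, both on log axes, for the 4 libraries used in gene tests; the dashed line marks 50000 UMIs. The only members right of the line are 2 of control 1 and 3 of control 3, and 4 of these carry 265 to 10738 hepatocyte list UMIs.

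The frequency of cDC1 was compared to ask whether the libraries labelled knockout held another share of these cells. cDC1 made up 2.558% (exact 95% binomial interval 1.996 to 3.227) of kept barcodes in control 1, 0.364% (0.044 to 1.31) in control 2 and 1.293% (1.083 to 1.533) in control 3. They made up 2.305% (1.779 to 2.934), 0.746% (0.019 to 4.088) and 1.366% (1.068 to 1.72) in knockouts 1, 2 and 3. The intervals cover counting error only. The groups overlapped, at 1.405% ± 1.101 (SD, n = 3) in controls and 1.472% ± 0.785 (SD, n = 3) in knockouts, and an exact two-sided permutation test over libraries gave p = 0.9, where 0.1 is the smallest p that 3 against 3 can give. The same-numbered libraries lay closer to each other than to the rest of their group. By hashtag, cDC1 were 1.549%, 1.063% and 0.903% of the barcodes of the 3 mice in control 3, against 1.293% and 1.841% for the 2 mice in knockout 3.

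Among gated dendritic cells, cDC1 made up 50.365% in control 1, 10.526% in control 2 (2 of 19 cells) and 44.863% in control 3, against 41.83% in knockout 1 and 42.771% in knockout 3. Knockout 2 had too few dendritic cells to enter. The means were 35.251% ± 21.589 (SD, n = 3) and 42.301% ± 0.665 (SD, n = 2), and an exact two-sided permutation test gave p = 1.0. Without control 2 the sign turned: the difference, knockout minus control, was -5.313 percentage points (exact permutation p = 0.3333, the smallest that 2 against 2 can give). By mouse the share was 55.556%, 50.704% and 18.919% in control 3 and 36.585% and 51.111% in knockout 3, a spread within each pool wider than the difference between the group means. Fewer cDC1 recovered and less RNA per cDC1 cannot be told apart in such shares, since a barcode needs enough UMIs to pass the rule.

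**Figure D3:**
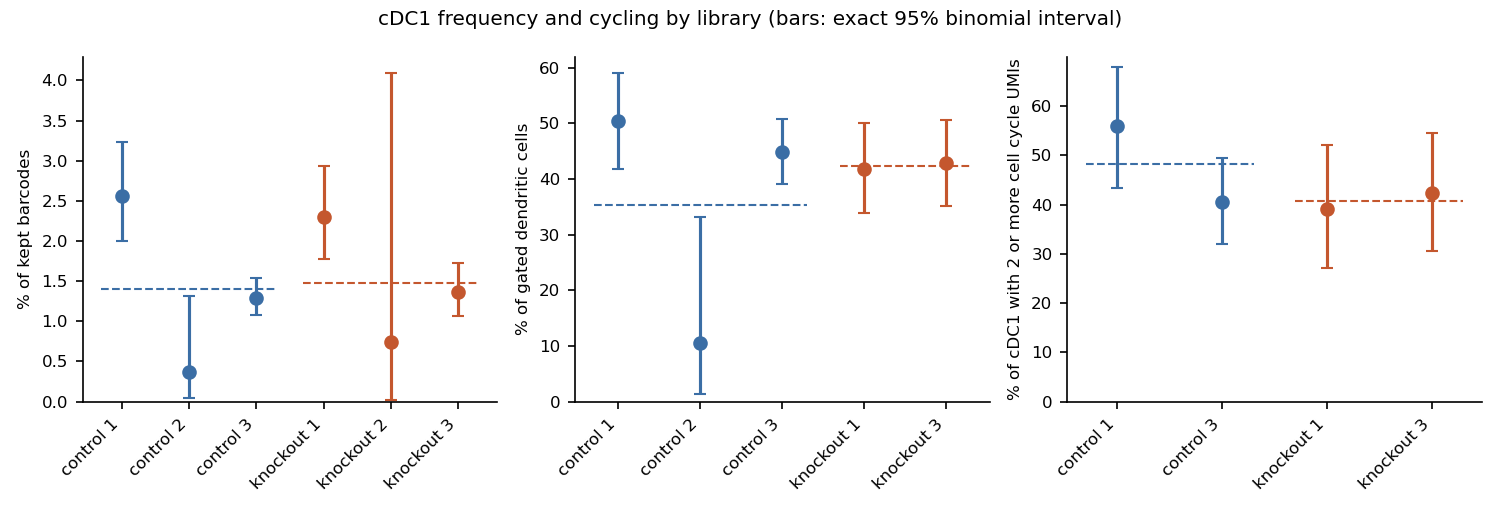
Percent of kept barcodes that were cDC1, percent of gated dendritic cells that were cDC1, and percent of cDC1 with at least 2 cell cycle UMIs of 1000, per library; bars are exact 95% binomial intervals and dashed lines are group means. The groups overlap in the first 2 panels and in the third, where control 1 is highest at 55.882%.

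Transcripts of the cell cycle list were found in many cDC1. With each cell thinned to 1000 UMIs, at least 2 UMIs of 39 cell cycle genes were found in 55.882% of members in control 1 and 40.458% in control 3, and in 39.062% in knockout 1 and 42.254% in knockout 3. The means were 48.17% ± 10.907 (SD, n = 2) and 40.658% ± 2.256 (SD, n = 2), and an exact two-sided permutation test gave p = 0.6667, where 0.333 is the smallest p possible. The groups overlapped. Unthinned, 91.3%, 91.6%, 90.62% and 85.92% of members carried 2 such UMIs. Of the list, Hmgb2 was detected in 71.83% to 78.12% of members and Tubb5 in 76.81% to 81.25%, against 28.24% to 43.48% for Mki67. The share with 2 UMIs is thus no count of dividing cells. Mki67, a marker of dividing cells, stood at 194.0 CPM in control 1 and 146.9 in control 3, against 125.1 CPM in knockout 1 and 103.7 in knockout 3. Top2a, the topoisomerase of dividing cells, stood at 271.1 and 181.1 CPM against 154.3 and 122.4 CPM. The groups of both genes did not overlap, but their log2 fold changes of -0.55 ± 0.24 and -0.68 ± 0.26 (SE) did not pass (adjusted p = 0.549 and 0.487, edgeR). Others of the list separated the other way: Mcm6 stood at 44.6 and 57.1 CPM in controls 1 and 3 against 81.9 and 80.4 CPM, and Pcna at 118.1 and 106.6 against 141.1 and 146.9 CPM. With all members, 15 of 38 tested genes of the list were above 0. How many of all genes tested separate by group was not counted.

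At a stricter minimum of 5 cell cycle UMIs per 1000, the share of cDC1 was 42.65% in control 1, 22.14% in control 3, 26.56% in knockout 1 and 29.58% in knockout 3. cDC2 showed 20.45%, 12.73%, 10.81% and 10.71%, and monocytes 11.02%, 12.27%, 9.33% and 12.23%. Mature dendritic cells, from 10, 60, 21 and 23 cells, showed 30.0%, 10.0%, 14.29% and 21.74%. At this minimum the share of cDC1 was above that of each other class in each of the 4 libraries. At the minimum of 2 UMIs it was not. There mature dendritic cells showed 41.67% against 40.46% of cDC1 in control 3, and 47.83% against 42.25% in knockout 3. Over the 4 libraries, cDC2 showed 27.03% to 45.45% at that minimum, macrophages 30.3% to 37.21% and monocytes 31.11% to 37.8%. Both comparisons are given as a description because the classes were chosen on their transcripts. Plasmacytoid dendritic cells were lowest in 3 of the 4 libraries.

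**Figure D4:**
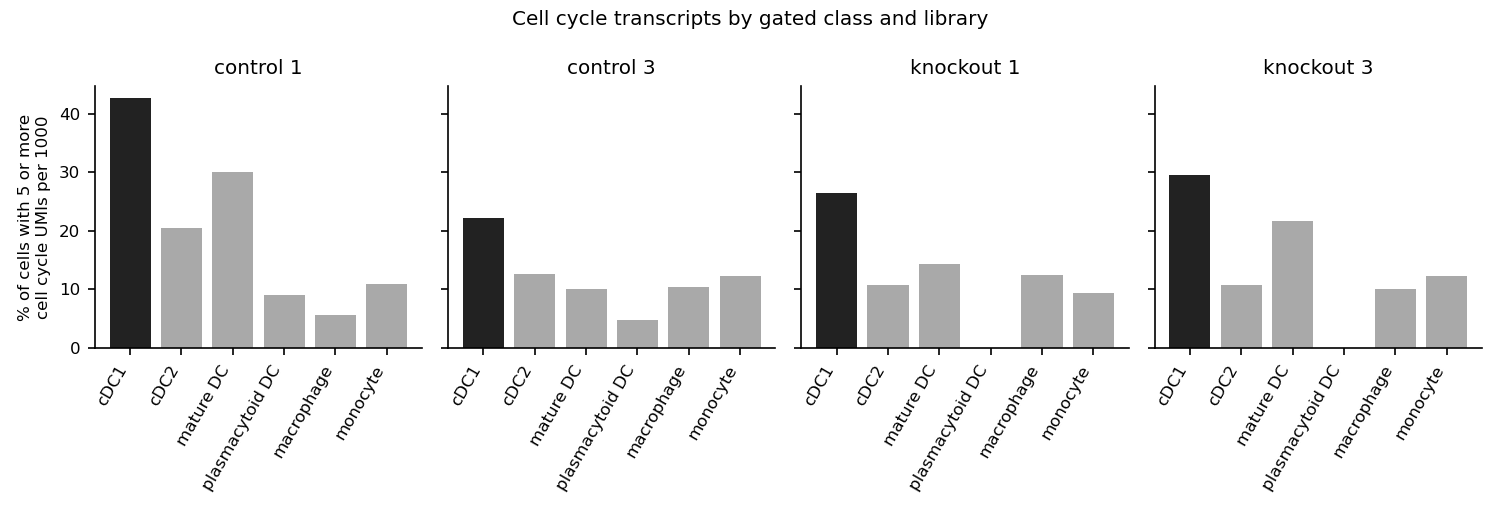
Percent of cells with at least 5 cell cycle UMIs after thinning each cell to 1000 UMIs, by gated class, in each of 4 libraries; black bars are cDC1. The cDC1 bar is the tallest in each library, from 22.14% in control 3 to 42.65% in control 1.

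Gene levels in cDC1 were then compared between the groups with UMIs summed per library (2 controls against 2 knockouts) by the quasi-likelihood test of edgeR, with p-values adjusted by Benjamini-Hochberg over the 8070 genes tested and called under 0.05. With all members, 20 genes fell (0.248% of those tested) and 0 rose (0.0%), and 731 genes (9.06%) had an unadjusted p under 0.05. DESeq2 called 58 lower and 2 higher. The count rested on the libraries: it was 117 without control 1, 52 without control 3, and 0 without knockout 1 or knockout 3. Among the 20 were the plasma protein genes Vtn, Ambp, Hpx, Fga and Fgb. Of the 8 genes of the hepatocyte list, 1 was called (Fgb) and 8 had an unadjusted p under 0.05, with a median log2 fold change of -4.57. Ambp stood at 130.14 CPM in control 1 and 148.98 in control 3, against 3.76 CPM in knockout 1 and 11.65 in knockout 3, which edgeR fitted as a log2 fold change of -4.21 ± 0.42 (SE) with an adjusted p = 0.0298. Vtn stood at 66.27 and 94.39 CPM against 1.88 and 1.17 CPM (-5.61 ± 0.47, adjusted p = 0.0172). Igfbp2, an insulin-like growth factor binding protein, stood at 79.53 and 39.8 CPM in the controls and had no UMI in the knockouts. Of the control UMIs of the 20 genes, 92.75% came from the 5 members over 50000 UMIs, which held 20.45% of all control UMIs, and the share was 72.67% at the lowest (Ctsl) and 99.35% at the highest (Fabp6).

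Without these 5 members, 0 of 7828 genes were called in either direction (0.0%) by edgeR and 0 by DESeq2, and 180 genes (2.3%) had an unadjusted p under 0.05. Ambp then stood at 4.58 and 14.06 CPM in the controls, with a log2 fold change of -0.46 ± 0.75 (SE). Bag3, a co-chaperone of HSP70, had the smallest p: 39.72 CPM in control 1, 27.48 in control 3, 75.27 in knockout 1 and 80.42 in knockout 3. In edgeR this made a log2 fold change of 1.26 ± 0.28 (SE; unadjusted p = 0.00158 and adjusted p = 1.0) without these members and 1.44 ± 0.28 (adjusted p = 0.0888) with them. Both knockouts were above both controls, and how many of all genes tested separate like this was not counted. Of the heat shock list, which holds Bag3, 3 of 14 genes had an unadjusted p under 0.05 without these members, with 11 of 14 above 0 and a median of 0.15, against 7 of 14 above 0 and a median of 0.081 with all members. S100a4 stood at 100.82 CPM in control 1 and 210.9 in control 3 against 78.1 and 32.63 CPM in knockouts 1 and 3, with a log2 fold change of -1.52 ± 0.43 (SE, unadjusted p = 0.00639). Its value rested on libraries 3, where the log2 ratio of CPM + 1 was -2.66, against -0.36 between libraries 1. In barcodes of at most 100 UMIs, S100a4 stood at 207.06 CPM in control 3 and 52.58 CPM in knockout 3, near its levels in the cDC1 of these libraries, and the part of such free RNA in its difference was not tested. Neither Bag3 nor S100a4 passed the adjusted threshold.

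Nr4a1 itself, an immediate early gene of many cells and not deleted in cDC1 by the design, stood at 119.29 CPM in control 1, 53.06 in control 3, 98.8 in knockout 1 and 87.41 in knockout 3. The fitted log2 difference was 0.18 ± 0.36 (SE; adjusted p = 0.942, edgeR) with all members and -0.11 ± 0.36 (adjusted p = 1.0) without those over 50000 UMIs. The groups overlapped. Its paralogue Nr4a3 stood at 21.7, 6.6, 44.2 and 33.8 CPM in the same order with all members, a log2 difference of 1.65 ± 0.51 (SE) with an adjusted p = 0.306 in edgeR.

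Lists of genes were read by counts and medians beside those of all genes tested. With the members over 50000 UMIs included, none of the 20 lists held a called gene. The median log2 fold change of all tested genes was -0.001 with all members and -0.004 without those over 50000 UMIs. Of all tested genes, 4020 of 8070 were above 0 with all members and 3870 of 7828 without those over 50000 UMIs. The 26 identity genes outside the rule had a median of 0.41 with 26 of 26 above 0, and of 0.089 with 21 of 26 above 0 without them. The lists of transcription factors, cross-presentation, uptake of dead cells, maturation, and receptors of growth and position also hold genes of the rule, so their medians are a description only. The list of MHC class II and its loading moved from 0.46 (16 genes) to 0.122, that of the interferon gamma response from 0.47 (16 genes) to 0.126 (18 genes), and that of costimulation and checkpoint ligands from 0.432 (11 genes) to 0.136 (13 genes). Each of these medians thus shrank by over 1.5 times once the 5 barcodes were left out.

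The sign of the median changed in 9 lists, from below to above 0 in 3 and from above to below 0 in 6. Glycolysis and hypoxia went from -0.208 (18 genes) to 0.291 (17 genes), oxidative phosphorylation from -0.268 (19 genes) to 0.053, and lipid handling from -0.524 (17 genes) to 0.025 (16 genes). Eno1, enolase 1, stood at 244.61 and 266.83 CPM in controls 1 and 3 with all members and at 79.43 and 123.34 CPM without those over 50000 UMIs, against 100.68 and 79.25 CPM in the knockouts. Hspd1, the mitochondrial chaperonin, went from a log2 fold change of -1.33 ± 0.25 to 0.26 ± 0.33 (SE; adjusted p = 0.0801 and 1.0, edgeR). Apoe, the lipoprotein gene, stood at 431.39 and 1012.24 CPM in the controls with all members and at 93.18 and 208.34 CPM without them.

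The list of early response and NF-kB genes had 23 of 24 genes above 0 and a median of 0.423 with all members, and 19 of 24 above 0 and a median of 0.233 without those over 50000 UMIs, where 4 of 24 had an unadjusted p under 0.05. Fos stood at 194.0 CPM in control 1, 132.93 in control 3, 343.44 in knockout 1 and 235.43 in knockout 3 without those members (log2 fold change 0.84 ± 0.27, unadjusted p = 0.012, adjusted p = 1.0, edgeR). Junb stood at 308.57, 242.85, 411.18 and 378.78 CPM (0.53 ± 0.22, unadjusted p = 0.0413). For both AP-1 genes the groups did not overlap, and how many of all genes tested do so was not counted. Counts here of genes with an unadjusted p under 0.05 stand beside 180 of 7828 genes (2.3%) over all genes tested. Of the cell cycle list, 9 of 38 genes had an unadjusted p under 0.05 without those members, with 16 of 38 above 0 and a median of -0.162. Without them Aurka, a mitotic kinase, stood at 51.94, 16.62, 8.47 and 10.49 CPM (-1.74 ± 0.59, unadjusted p = 0.0169). The value for Aurka rested on control 1: the log2 ratio of CPM + 1 was -2.48 between libraries 1 and -0.62 between libraries 3, and with all members the log2 fold change went from -1.61 to -0.86 without control 1. Of the type I interferon list, Oasl1 stood at 19.86, 17.26, 34.81 and 44.29 CPM (1.11 ± 0.34, unadjusted p = 0.00949), while the median of its 19 genes was -0.022.

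Single genes of the signals between cDC1 and lymphocytes did not pass in either form. Without those members, 6 of 14 genes of the cytokine and chemokine list were above 0, with a median of -0.104. Of the list named for NK cell receptor ligands, 1 of 7 genes was above 0, with a median of -0.267. Cd226, which encodes a receptor and not a ligand, is counted in that list. It stood at 27.5 CPM in control 1, 56.24 in control 3, 32.93 in knockout 1 and 17.48 in knockout 3 (log2 fold change -0.79 ± 0.41, SE). Without the members over 50000 UMIs, Cxcl16, the ligand of CXCR6, stood at 65.69 CPM in control 1 and 79.25 in control 3, against 95.03 CPM in knockout 1 and 118.88 in knockout 3 (log2 fold change 0.55 ± 0.26, unadjusted p = 0.0624, adjusted p = 1.0, edgeR). Cadm1, whose product binds the receptor CRTAM of NK and CD8 T cells, stood at 346.76, 358.53, 724.51 and 355.47 CPM, so knockout 1 alone was high. Itgae stood at 59.57, 100.98, 137.37 and 136.36 CPM (0.73 ± 0.28, unadjusted p = 0.0308). Cd80, a ligand of CD28 and CTLA-4, stood at 29.02, 15.98, 38.58 and 30.3 CPM. In Cxcl16, Itgae and Cd80 both knockouts were above both controls. These genes had the smallest p of their lists, and how many of all genes tested separate like this was not counted, so this is a description only.

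**Figure D5:**
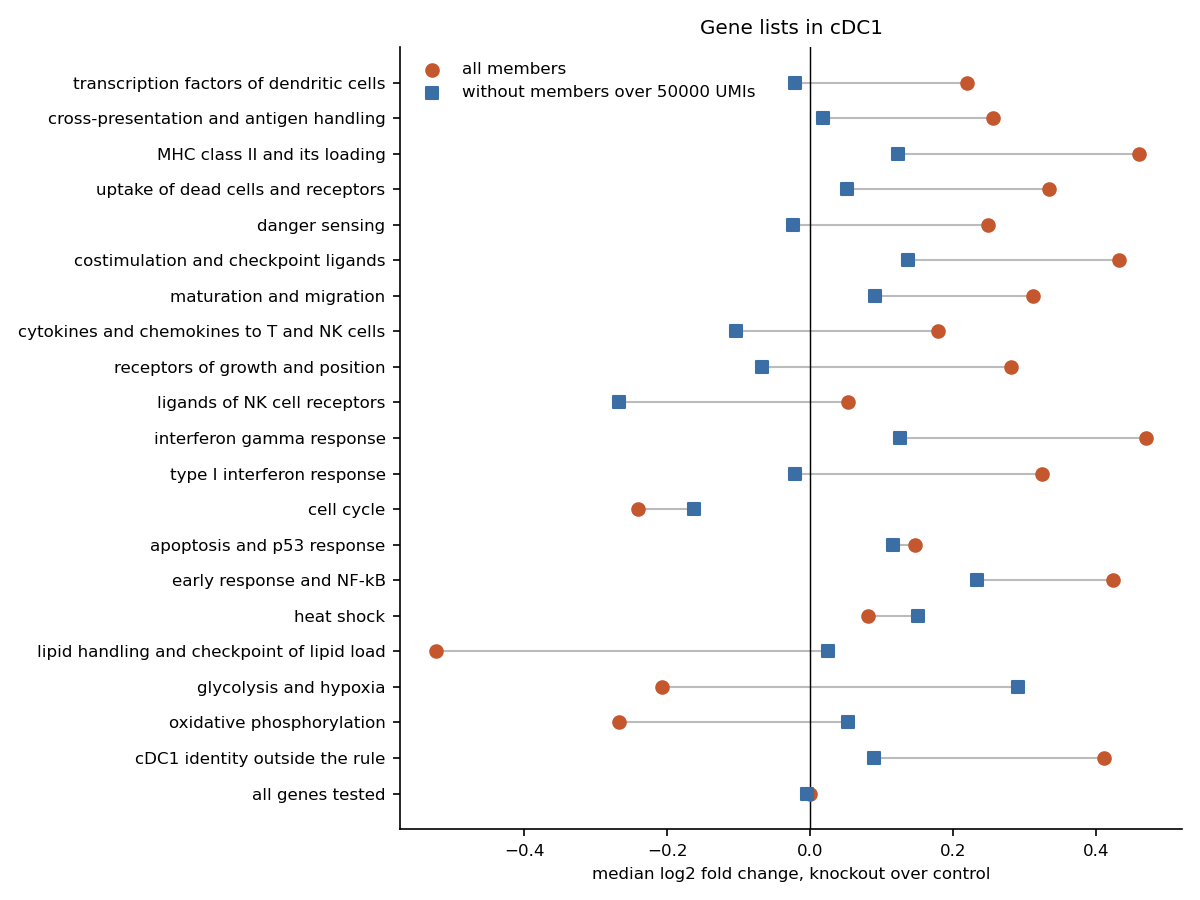
Median log2 fold change, knockout over control, of the tested genes of each list in cDC1, with all members (circles) and without members over 50000 UMIs (squares). Medians of most lists move toward 0 without those members, and those of glycolysis, oxidative phosphorylation and lipid handling go from below to above 0.

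Whether the change differed between cDC1 and cDC2 was tested by the term of class by genotype in one edgeR fit over the same 4 libraries. Of 7877 genes, 20 were lower in this difference (0.254%) and 1 was higher (0.0127%), which was Cst3, a cysteine protease inhibitor gene. Cst3 is one of the genes that chose the members, so its call is given as a description and supports nothing. Alb, Apoe, Fgg and Serpina1b, which hepatocytes express, were among the 5 smallest p. Without the members over 50000 UMIs, 1 of 7168 genes was called (0.014% lower, 0.0% higher), and DESeq2 also called 1, while 358 genes (4.99%) had an unadjusted p under 0.05. This was S100a4, which stood in cDC2 at 1383.4 CPM in control 1, 2106.66 in control 3, 2261.09 in knockout 1 and 1757.3 in knockout 3. The difference of the 2 log2 fold changes was -1.70 ± 0.29 (SE, adjusted p = 0.0333, edgeR), and -2.52 (adjusted p = 0.00084) when members also had to show 3 of the 7 identity genes. With all members it was -1.36 (adjusted p = 0.0827), and it was -1.04 (adjusted p = 0.527) without control 3 and -0.94 (adjusted p = 0.313) without knockout 3. Over the alternatives run, its adjusted p ranged from 0.000188 to 0.527. S100a4 was higher in members with Clec9a alone than in those with both genes of the rule, and in barcodes of at most 100 UMIs it stood at 207.06 CPM in control 3 against 52.58 CPM in knockout 3, the direction of the called difference. The part of that mixture and of free RNA in this difference was not tested.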

How the data were processed

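The data are single-cell mRNA of dissociated tumour-bearing liver in 6 libraries. Values as deposited are raw UMI counts, which Cell Ranger 7.0.1 (libraries 1 and 2) or 9.0.1 (libraries 3) produced, per the file headers; the submitters' processing notes name 9.0.1 and GRCm39. Hashtag counts of libraries 3 stayed out of all sums. The rule was applied to kept barcodes with Python 3.11.15, and mice were called from hashtags with HTODemux of Seurat 5.3.0 (quantile 0.99). Kept barcodes held 887170 to 93302952 UMIs a library and members 4942 to 1960016, so depth limits libraries 2 most.

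UMIs were summed over members in libraries with at least 10 members and tested with edgeR 4.0.16 (TMM, filterByExpr, quasi-likelihood, two-sided, Benjamini-Hochberg, threshold 0.05); the standard error is the log2 fold change over the square root of F. CPM are shares of member UMIs times 1000000. Shares were compared by exact two-sided permutation over libraries. On simulated data with 8159 genes, the cDC1 fit recovered 80 of 92 genes changed by 2 log2 units and 12 of 94 changed by 1. The fit against cDC2 on 7917 genes recovered 19 of 94 and 2 of 99. The simulation gave all genes the same dispersion, and its libraries of a class differed only in depth and in the set changes. The real libraries also differ in other ways, such as the members over 50000 UMIs, so recovery in them may be different. Alternatives were DESeq2 1.42.0, other scaling, filters, gates, units and left-out libraries. Members and lists were chosen with earlier results of these data known. Genes were named by rule: up to 10 called genes per direction by smallest p, 2 with the smallest p of each functional list, Nr4a1, identity genes, the 5 smallest p against cDC2 and the 5 most like Xcr1; genes named from the comparison without members over 50000 UMIs, and levels of other list genes, were chosen after their values were seen.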

Additional observations from a re-analysis of the deposited data

Results flagged for a closer look

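The change between groups differed between cDC1 and cDC2 for 21 genes by the class by genotype term (edgeR). Of the 5 with the smallest p, 4 are expressed by hepatocytes. The difference of log2 fold changes was -2.80 for Apoe, -4.53 for Serpina1b, -4.60 for Alb and -5.63 for Fgg. Alb stood at 95.19 and 1877.54 CPM in the cDC1 of controls 1 and 3 and at 24.44 and 129.1 CPM once members over 50000 UMIs were left out. Without those members the difference was -1.26 for Alb (adjusted p = 0.916), -0.55 for Apoe and -0.55 for Serpina1b, none past the threshold, and Fgg was not tested.

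For Ccl17, a chemokine for CCR4, the fitted difference was -10.11 (adjusted p = 0.0033, edgeR). In cDC1 it stood at 20.48 CPM in control 1 and 5.1 in control 3, against 0.0 CPM in knockout 1 and 2.33 in knockout 3. In cDC2 it stood at 0.0, 2.42 and 9.01 CPM in control 1, control 3 and knockout 1 and at 452.06 CPM in knockout 3. The fitted value depends on the prior count and is no bound, since 2 sums hold no UMI. Without knockout 3 the difference did not pass (-8.54, adjusted p = 0.636).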

How the results depend on the processing

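With 2 libraries a group in gene tests, depth and the number of libraries limit what could be called. The difference in the cDC1 share of kept barcodes (0.067 percentage points, knockout minus control) ranged from -0.454 to 0.643 with each library left out, with -0.349 without knockout 1. It was -0.121 with at least 2 UMIs of Xcr1 and Clec9a, -0.132 with cells thinned before the rule, -0.022 among barcodes with a Ptprc UMI, and -0.043 and -0.012 for members with 3 of 7 identity genes, without and with the limit of 50000 UMIs. The share of dendritic cells (7.049 points) ranged from -5.313 to 14.606 with each library left out. The share of cDC1 with at least 2 cell cycle UMIs (-7.512 points) likewise ranged from -15.224 to 0.2, with 0.2 without control 1. The cause of each turn was not tested.

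The 20 genes called in cDC1 became 60 with DESeq2, 564 without a filter on low counts, 11 with at least 1000 UMIs a barcode, 9 without hashtag multiplets, 133 with at least 2 UMIs of Xcr1 and Clec9a, 9 with each library of at least 1 member, 0 with mice of libraries 3 as units and 36 without background genes. They ranged from 0 to 117 with each library left out. Alternatives chosen after seeing the data gave 0 without members over 50000 UMIs (0 also with DESeq2, and 4, 1, 5 and 0 without control 1, control 3, knockout 1 and knockout 3), 121 with 3 of 7 identity genes and 0 with both. With mice as units, 141 genes had an unadjusted p under 0.05 (edgeR).

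The 21 genes against cDC2 became 12 with DESeq2, 77 without the filter, 12 without multiplets, and 8 to 92 with each library left out. They became 1 without members over 50000 UMIs (1 with DESeq2, 11 without control 1 and 2 without any other library) and 1 with 3 of 7 identity genes as well.

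Same-numbered libraries share only a number in the labels: with it as a replicate block, the calls were 308 in cDC1 and 92 against cDC2, or 6 and 23 without members over 50000 UMIs, and the dendritic cell share differed by -5.313 points. Deviations of the 2 pairs correlated at 0.389 over genes.

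Of 1056 single-gene values under alternatives, 936 kept direction and side of the threshold, 46 lost and 58 gained a call, and 16 turned, none of them called in the turned form. Without members over 50000 UMIs, and then with 3 of 7 identity genes too, log2 fold changes turned to 0.26 and 0.24 for Hspd1, 0.14 and 0.15 for Lgals9, 0.19 and 0.23 for Ndufa5, -0.11 and -0.10 for Nr4a1, and 1.27 and 1.32 for Psph. With the identity genes, Syk was at -0.013 and Apoe against cDC2 at 0.15. Lgals9 was at 0.12 with mice as units, Syk at -1.68 with each library of at least 1 member, and with each library left out Cd226 ranged from -0.885 to 0.262 and Nr4a1 from -0.319 to 0.824, each turning without control 3.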
